A study of Mus musculus with 4 samples.

Results

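The interferon-inducible GTPases described here are 10 mouse genes of 2 families, 4 immunity-related GTPases (Irg: Iigp1, Igtp, Irgm1 and Irgm2) and 6 guanylate-binding proteins (Gbp3, Gbp5, Gbp6, Gbp7, Gbp9 and Gbp10). They were taken as a named list, each read from a probe set annotated with that symbol alone, and all 10 were measured, among 22180 genes in all. The genes were selected on their differences between GSK-126 and DMSO on these same arrays. Those differences, and the p-values and calls printed with them, are therefore a description and not an independent test. The cells were lines established from mammary tumours that arose in MMTV-NIC females on the FVB background. There the MMTV promoter drives an activated ErbB2 together with Cre recombinase from the same transcript, in mammary epithelium, and cells of both groups carry it. Cultures received 2 µM GSK-126, an inhibitor of the H3K27 methyltransferase EZH2 (n = 2 arrays), or the vehicle DMSO (n = 2 arrays), for 96 h. The age of the mice, and whether the replicates came from different cultures or lines, are not given in the labels, so the spread and the p-values below measure only differences between arrays, which may be technical.

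Irg and Gbp proteins are a cell-autonomous defence: they are made after interferon, above all interferon gamma, and gather on the vacuoles of intracellular parasites and bacteria, which they help to disrupt. Within the Irg family, Iigp1 is an effector that loads onto such vacuoles, whereas Irgm1, Irgm2 and Igtp are regulators that sit on the cell's own membranes and keep the effectors inactive there. Gbp proteins are larger GTPases, several of them lipid-anchored, that coat vacuoles and free bacteria and help to start caspase-11 and inflammasome responses. Their genes lie in clusters and are controlled through the gamma-activated site (GAS) and the interferon-stimulated response element (ISRE), which binds ISGF3 and interferon regulatory factors.

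Sequences upstream of the members are shown to set out where matches to these elements lie. RefSeq promoter windows (build GRCm38.p6, from C57BL/6J and not FVB) matched 6 of the 10 members, and Iigp1, Gbp6, Gbp9 and Gbp10 are named only. The 120 bases before the RefSeq start are printed 5′ to 3′ on the strand of the gene, with capitals marking matches to GAS (TTCNNNGAA) or to the ISRE core (GAAA, 2 bases of any kind, GAAA) on either strand.
Igtp, chr11:58199436-58199555, plus strand: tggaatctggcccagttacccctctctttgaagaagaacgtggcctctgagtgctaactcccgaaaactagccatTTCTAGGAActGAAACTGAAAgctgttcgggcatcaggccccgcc
Irgm2, chr11:58214857-58214976, plus strand: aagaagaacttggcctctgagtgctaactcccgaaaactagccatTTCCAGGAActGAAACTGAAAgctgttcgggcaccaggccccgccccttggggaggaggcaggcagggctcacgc
Irgm1, chr11:48871421-48871540, minus strand: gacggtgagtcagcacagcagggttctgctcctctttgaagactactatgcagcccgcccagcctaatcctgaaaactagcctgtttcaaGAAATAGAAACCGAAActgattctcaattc
Gbp7, chr3:142530216-142530335, plus strand: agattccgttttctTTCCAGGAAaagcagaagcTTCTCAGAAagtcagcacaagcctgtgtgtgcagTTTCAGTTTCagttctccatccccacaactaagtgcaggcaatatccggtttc
Gbp3, chr3:142559924-142560043, plus strand: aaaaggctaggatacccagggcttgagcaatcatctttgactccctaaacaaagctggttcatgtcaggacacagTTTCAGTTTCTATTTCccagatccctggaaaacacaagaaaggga
Gbp5, chr3:142496814-142496933, plus strand: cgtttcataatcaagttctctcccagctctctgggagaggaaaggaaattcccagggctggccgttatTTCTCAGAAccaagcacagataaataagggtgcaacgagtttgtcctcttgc

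Over the 250 bases upstream, all 6 of these members held an ISRE core and 4 held a GAS match. Among all 32851 promoter windows of the same length, 2.98% held an ISRE core, 7.02% a GAS match and 0.332% both. Gbp5 has a further GAS match 245 bases upstream and an ISRE core 165 bases upstream, outside the printed stretch. In Irgm1 and Gbp3 the 2 ISRE matches overlap each other, and the other annotated start of Gbp3 had no match. In Igtp and Irgm2 the GAS match is followed, 2 bases after its end, by an ISRE core on the same strand. This arrangement, which was noticed in these windows and then counted, occurred in 5 of the 32851 windows, or 0.0152%. All 5 belong to Irg genes of chromosome 11: Igtp, Irgm2, Tgtp1, Tgtp2 and Gm12185. These paralogs share sequence, so the windows are not independent of each other, and a match is a description and not a binding site.

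**Figure D1:**
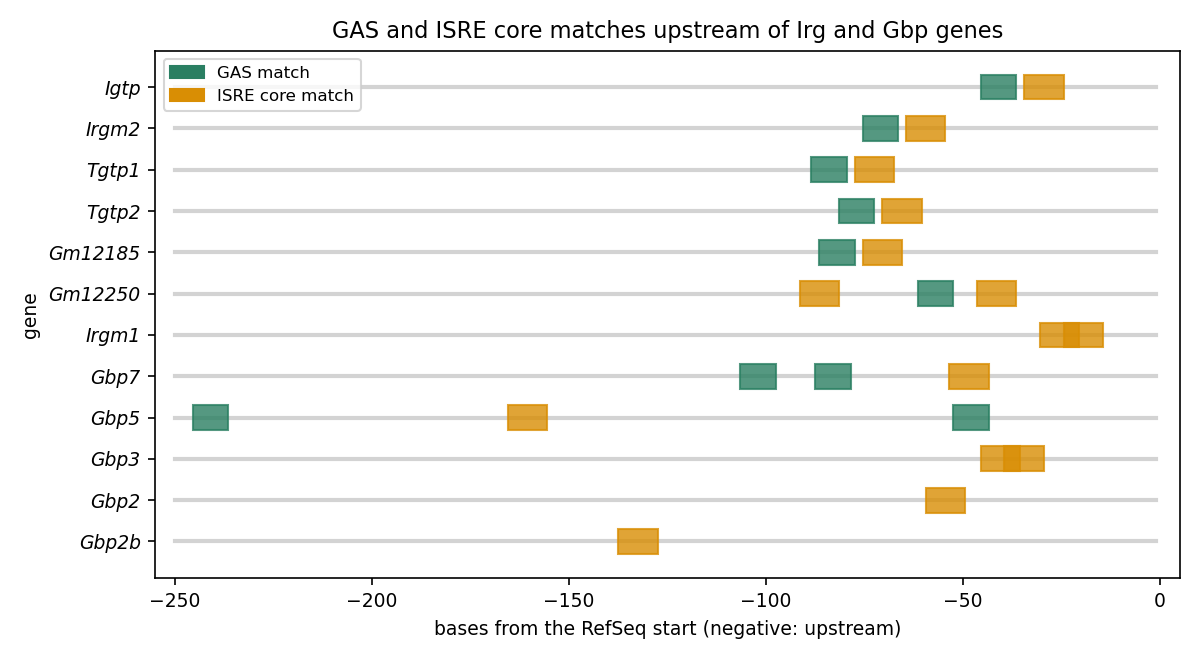
Positions of GAS matches (green) and ISRE core matches (orange) in the 250 bases upstream of the RefSeq start of 12 Irg and Gbp genes, the x axis giving bases from the start. In the upper 5 genes the GAS match is followed 2 bases on by an ISRE core, Irgm1 and Gbp3 have overlapping ISRE cores, and Gbp5 holds its matches farther apart.

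Values below are deposited log2 expression values from robust multi-array averaging (RMA), as mean ± SD with n = 2 arrays per group, and a difference is GSK-126 minus DMSO on the log2 scale with the standard error (SE) of a limma fit across all 22180 genes. Over all genes the median difference was -0.01. A gene is called dim where its mean lies below 4.77, the 40th percentile of mean level. Levels of different probe sets are not comparable with each other, so no member is ranked against another by level. The arrays correlated with each other at 0.981 to 0.988 over all probe sets, and the 3 lowest values, 0.981 to 0.983, were those of GSK-126 replicate 2. Of the 12 mammary epithelial markers, none was dim in DMSO and 1 with GSK-126. Their mean level was 9.49 to 9.59 on the 4 arrays, and 0 passed over all genes in limma. At an unadjusted p under 0.05, 1 was higher (Cldn4, 0.39) and 3 lower (Cldn7 -0.22, Erbb3 -0.27, Elf3 -0.32). Of 10 fibroblast markers, 5 were dim in DMSO and 4 with GSK-126. By the same rule 2 of these were higher (Pdgfra 0.45, Thy1 0.35) and 0 lower. Of 8 endothelial markers, 7 were dim in DMSO and 6 with GSK-126. The share of other cells was not tested. Ezh2, which encodes the enzyme that the drug blocks, stood at 9.52 ± 0.08 in DMSO and 9.33 ± 0.06 with GSK-126, which does not check the labels because the drug acts on the protein.

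All 10 members had a higher mean with GSK-126, which held for 48% of all genes. In 8 of the 10, both GSK-126 values lay above both DMSO values, and 18.2% of all genes were apart in that direction (40.1% in either). Past the threshold of 0.05 (limma, Benjamini-Hochberg over all genes) were 2 members, Iigp1 and Gbp7, both higher, against 0.261% of all genes called higher. A difference of at least 0.5 was seen in 5 members and in 2.28% of all genes. Since the members were proposed from this same contrast, nothing is read from these counts. The median difference was 0.50 over the 10 members, from 0.09 for Gbp5 to 2.01 for Iigp1. In bulk RNA, a change in the share of cells that express a gene and a change in RNA per cell cannot be told apart.

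**Figure D2:**
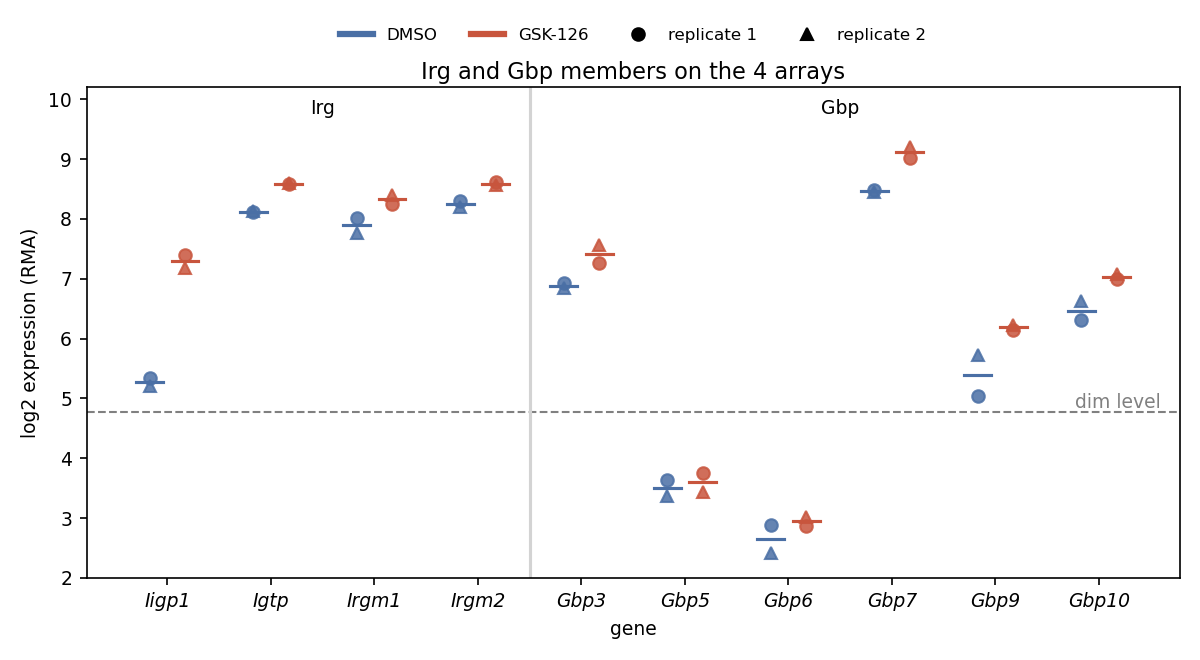
Log2 expression of the 4 Irg and 6 Gbp members on each array, with circles for replicate 1, triangles for replicate 2, horizontal bars for group means and the dashed line for the dim level of 4.77. The groups are apart for 8 members, while the DMSO and GSK-126 values of the dim genes Gbp5 and Gbp6 overlap.

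Among the Irg genes, the effector Iigp1 had the largest difference of the family. Its level was 5.34 and 5.22 on the DMSO arrays and 7.40 and 7.18 on the GSK-126 arrays. The groups stood 1.84 apart between their nearest arrays, and the replicates of a group differed by at most 0.22. The difference was 2.01 (SE 0.13), a 4.03-fold change and rank 2 among all genes by increase.

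The regulators differed much less. Igtp, also known as Irgm3, was at 8.11 and 8.14 in DMSO and at 8.58 and 8.60 with GSK-126. Its replicates nearly coincided, and the groups did not overlap (difference 0.46, SE 0.08). Irgm1, a regulator also required for mitochondrial and autophagic upkeep, was at 8.02 and 7.77 in DMSO and at 8.26 and 8.41 with GSK-126. Its nearest arrays of opposite groups were 0.24 apart, about as far as its DMSO arrays were from each other (difference 0.44, SE 0.11). Irgm2, the third regulator, was at 8.30 and 8.19 in DMSO and at 8.61 and 8.57 with GSK-126 (difference 0.34, SE 0.09). Its groups did not overlap, and it had the smallest difference among the 4 Irg members.

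Of the Gbp genes on chromosome 3, Gbp7, which has been linked to autophagy and to assembly of the phagocyte oxidase, was at 8.48 and 8.45 in DMSO. With GSK-126 it was at 9.02 and 9.20, with 0.54 between the nearest arrays of the groups. The difference was 0.65 (SE 0.09), a 1.57-fold change. Gbp3, its neighbour in the cluster, was at 6.93 and 6.85 in DMSO and at 7.26 and 7.57 with GSK-126. Its groups were apart, with the GSK-126 arrays 0.31 from each other (difference 0.53, SE 0.13). Gbp5, which promotes assembly of the NLRP3 inflammasome, was dim in both groups, at 3.64 and 3.37 in DMSO and at 3.75 and 3.44 with GSK-126. Its groups overlapped, and the difference of 0.09 (SE 0.19) turned to -0.04 without DMSO replicate 2 and to -0.06 without GSK-126 replicate 1.

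On chromosome 5 the DMSO arrays lay farther from each other than on chromosome 3, while the GSK-126 arrays lay closer. Gbp9 was at 5.05 and 5.72 in DMSO and at 6.15 and 6.23 with GSK-126. It had the largest Gbp difference, 0.80 (SE 0.21), and also the widest gap between replicates, 0.68 between its DMSO arrays. Gbp10 was at 6.30 and 6.63 in DMSO and at 6.99 and 7.08 with GSK-126 (difference 0.57, SE 0.13). In both genes DMSO replicate 2 was the higher DMSO array and the groups still did not overlap. Gbp6 was dim in both groups, at 2.88 and 2.41 in DMSO and at 2.87 and 3.02 with GSK-126, and its groups overlapped (difference 0.30, SE 0.21). Gbp6 and Gbp10 are close relatives, and an array cannot separate transcripts that share probe sequence.

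Set against each other, the families did not differ in a stable direction. The Irg median was 0.45 and the Gbp median 0.55, so that Irg minus Gbp was -0.10. The means pointed the other way, 0.81 for Irg and 0.49 for Gbp, because Iigp1 alone lay far above the rest. Without DMSO replicate 1, Irg minus Gbp in medians was 0.01. Leaving aside Iigp1 and the dim genes Gbp5 and Gbp6, the 3 Irg regulators had differences of 0.34 to 0.46 and the 4 remaining Gbp genes of 0.53 to 0.80. These subsets were formed after their values were seen and were not tested. Against the DMSO mean, GSK-126 replicate 2 showed the same order, with 0.32 to 0.51 for the regulators and 0.61 to 0.84 for the Gbp genes. On GSK-126 replicate 1 the subsets overlapped, since Gbp3 was at 0.38 and Igtp at 0.46. Per array, the mean of the 10 members around each gene's own mean was -0.30 and -0.32 in DMSO and 0.29 and 0.33 with GSK-126. The treated arrays were less alike by the median difference from the DMSO mean, 0.42 on replicate 1 and 0.56 on replicate 2. Of the 10 members 7 were higher on GSK-126 replicate 2, and Iigp1 was not among them.

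The threshold calls rested on having all 4 arrays, and over all genes 0 to 4 passed when 1 was left out. Without any 1 of the 4 arrays, the difference of Iigp1 stayed between 1.90 and 2.12 and that of Gbp7 between 0.55 and 0.74. With arrays centred on their median, Gbp7 no longer passed (difference 0.59), and calls over all genes went from 58 higher and 38 lower to 55 higher and 62 lower.

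The other Irg genes were not on the list and were tested in the same fit. None of the 8 measured passed over all genes in limma. At an unadjusted p under 0.05, 2 of them were higher and 0 lower, and 4.64% of all genes were higher by that rule. 9930111J21Rik2, an interferon-inducible GTPase gene beside the Tgtp genes, was closest to the threshold. It was at 3.15 and 3.43 in DMSO and at 4.36 and 4.51 with GSK-126, dim in both groups, with a difference of 1.14 (SE 0.18, adjusted p = 0.0544). Its adjusted p was 0.0449 under a robust prior and 0.0516 to 0.478 in the other alternatives that tested it. Gm4951, a neighbour of Iigp1, was at 3.91 and 3.97 in DMSO and at 4.64 and 5.01 with GSK-126 (difference 0.88, SE 0.18, adjusted p = 0.135). F830016B08Rik, the gene next to Iigp1, was at 4.35 and 4.52 in DMSO. With GSK-126 it was at 4.43 on replicate 1 and 5.48 on replicate 2, so its difference of 0.52 (adjusted p = 0.607) came from 1 array and was -0.0033 without it. Gm12250, which encodes the effector Irgb10, was dim in both groups, with a difference of 0.37 (SE 0.16, adjusted p = 0.478) and groups apart. Irgc1 (0.30), Gm12185 (0.05) and Gm5431 (-0.32) were dim in both groups, with SEs of 0.18, 0.31 and 0.22. Irgq, a relative that is not known for interferon induction, was well expressed and had a difference of -0.11 (SE 0.11, adjusted p = 0.802).

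Of the other Gbp genes, 4 were measured by a probe set of their own, and all 4 were dim in both groups. None passed in limma, and 1 had an unadjusted p under 0.05. That gene was Gbp2b (difference 0.53, SE 0.23, adjusted p = 0.470), at 4.22 and 3.63 with GSK-126 and at 3.32 and 3.47 in DMSO. The differences of Gbp8 (0.05), Gbp11 (-0.07) and Gbp4 (-0.08) were smaller than their SEs of 0.26, 0.17 and 0.18. A probe set shared by Gbp2 and Gbp2b was at 6.48 and 6.80 in DMSO and at 7.27 and 7.22 with GSK-126, with groups apart (difference 0.60). Among the other interferon-inducible large GTPases, Mx2, a dynamin-like antiviral GTPase, was at 6.48 and 6.62 in DMSO and at 7.07 and 7.29 with GSK-126 (difference 0.63, SE 0.12, adjusted p = 0.105). Its paralog Mx1 was dim in both groups (0.18, SE 0.21). The very large GTPase relatives Gm1966 (0.15, SE 0.21) and Gm8995 (-0.06, SE 0.23) were dim as well.

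Of 9 probe sets annotated with several symbols, at least 1 of them from the family, all had a higher mean with GSK-126 and 6 had groups apart upward. The probe set of 9930111J21Rik1 and 9930111J21Rik2 also carries Psme2, which is outside the family. Among all genes, 48% had a higher mean and 18.2% were apart in that direction. Some of the 9 stand for the same genes, so they are not separate results. None passed in a limma fit over all probe sets, where adjusted p ran from 0.641 to 0.957. There 4 had an unadjusted p under 0.05, and in the fit over genes 4.64% of all genes were higher by that rule. The probe set of Ifi47, the effector Irgd, shared with Olfr56, went from 5.14 and 5.11 in DMSO to 5.58 and 5.70 with GSK-126. The 2 probe sets of Tgtp1 and Tgtp2, which encode the effector Irgb6, had differences of 0.16 and 0.10 and overlapping groups. The 4 probe sets of the very large GTPase Gvin1 and its copies were bright and had differences of 0.30 to 0.47.

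**Figure D3:**
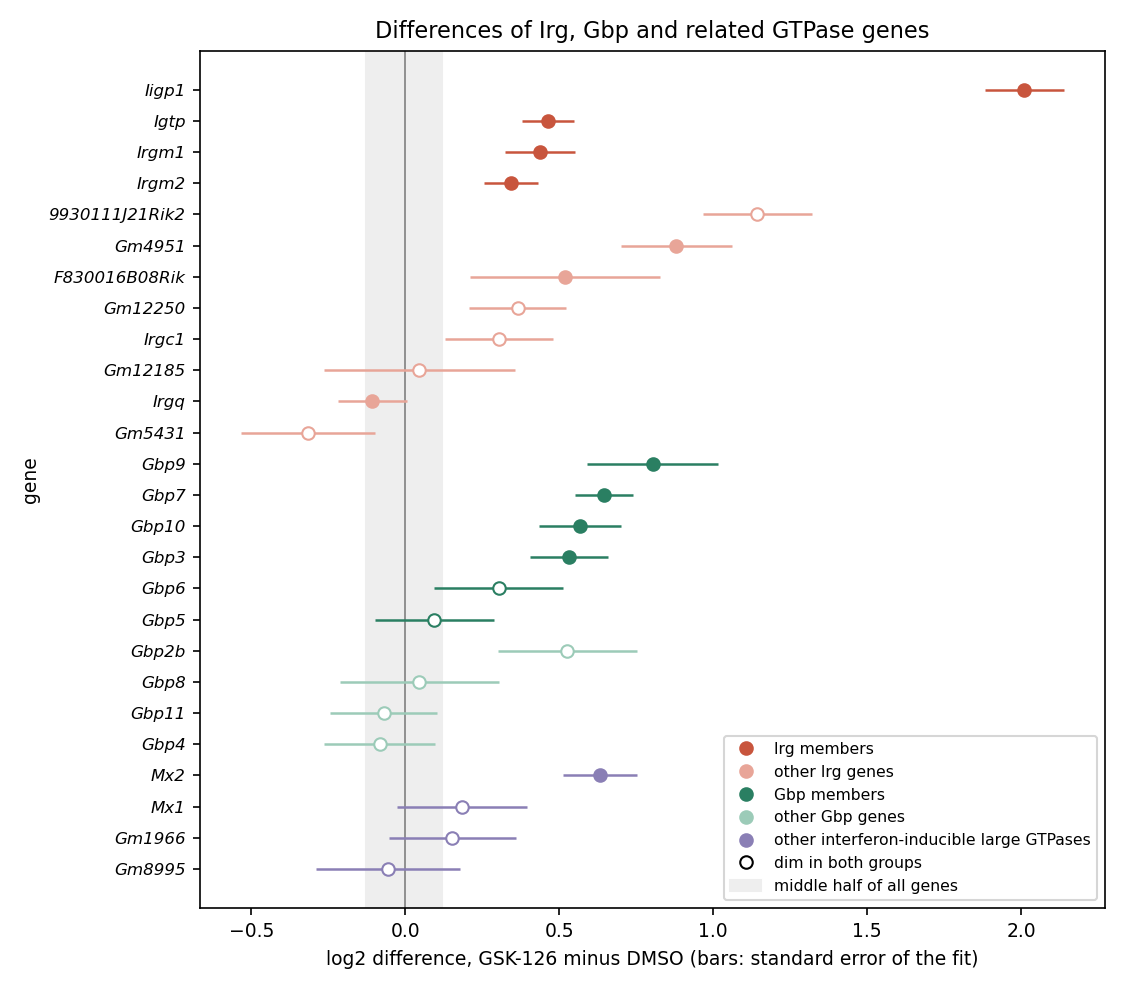
Difference between GSK-126 and DMSO on the log2 scale for 26 Irg, Gbp and related GTPase genes with a probe set of their own, bars giving the standard error and open points genes dim in both groups. Iigp1 stands apart at 2.01, most other members lie between 0.30 and 0.80, and most dim relatives lie near the grey band that holds the middle of all genes, from -0.13 to 0.12.

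The members lie in 5 clusters by RefSeq order, on chromosomes 3, 5, 11 (2 clusters) and 18. The 4 nearest measured genes on each side of every cluster, 40 genes in all, had a median difference of -0.02. None of these 40 passed over all genes in limma. Groups were apart in 5 of them upward and 11 downward, beside 18.2% and 21.8% of all genes. Btnl9, beside the Irgm1 cluster, had the highest flanking difference (0.52, dim in both groups). Inside the clusters lay 20 measured genes, of which 10 are the members, selected on this contrast. The 9 relatives among them had a median of 0.37, with groups apart in 4 upward and 0 downward and 0 past the threshold. The chromosome 18 cluster had 4 measured genes, from 0.52 for F830016B08Rik to 2.01 for Iigp1. Beside it, the 4 genes after Iigp1, starting with Smim3 (0.05) and Dctn4 (0.06), lay between -0.11 and 0.14. The 4 genes on its other side lay between -0.08 and 0.34. The highest of these was Minar2, dim in both groups and with groups apart upward.

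**Figure D4:**
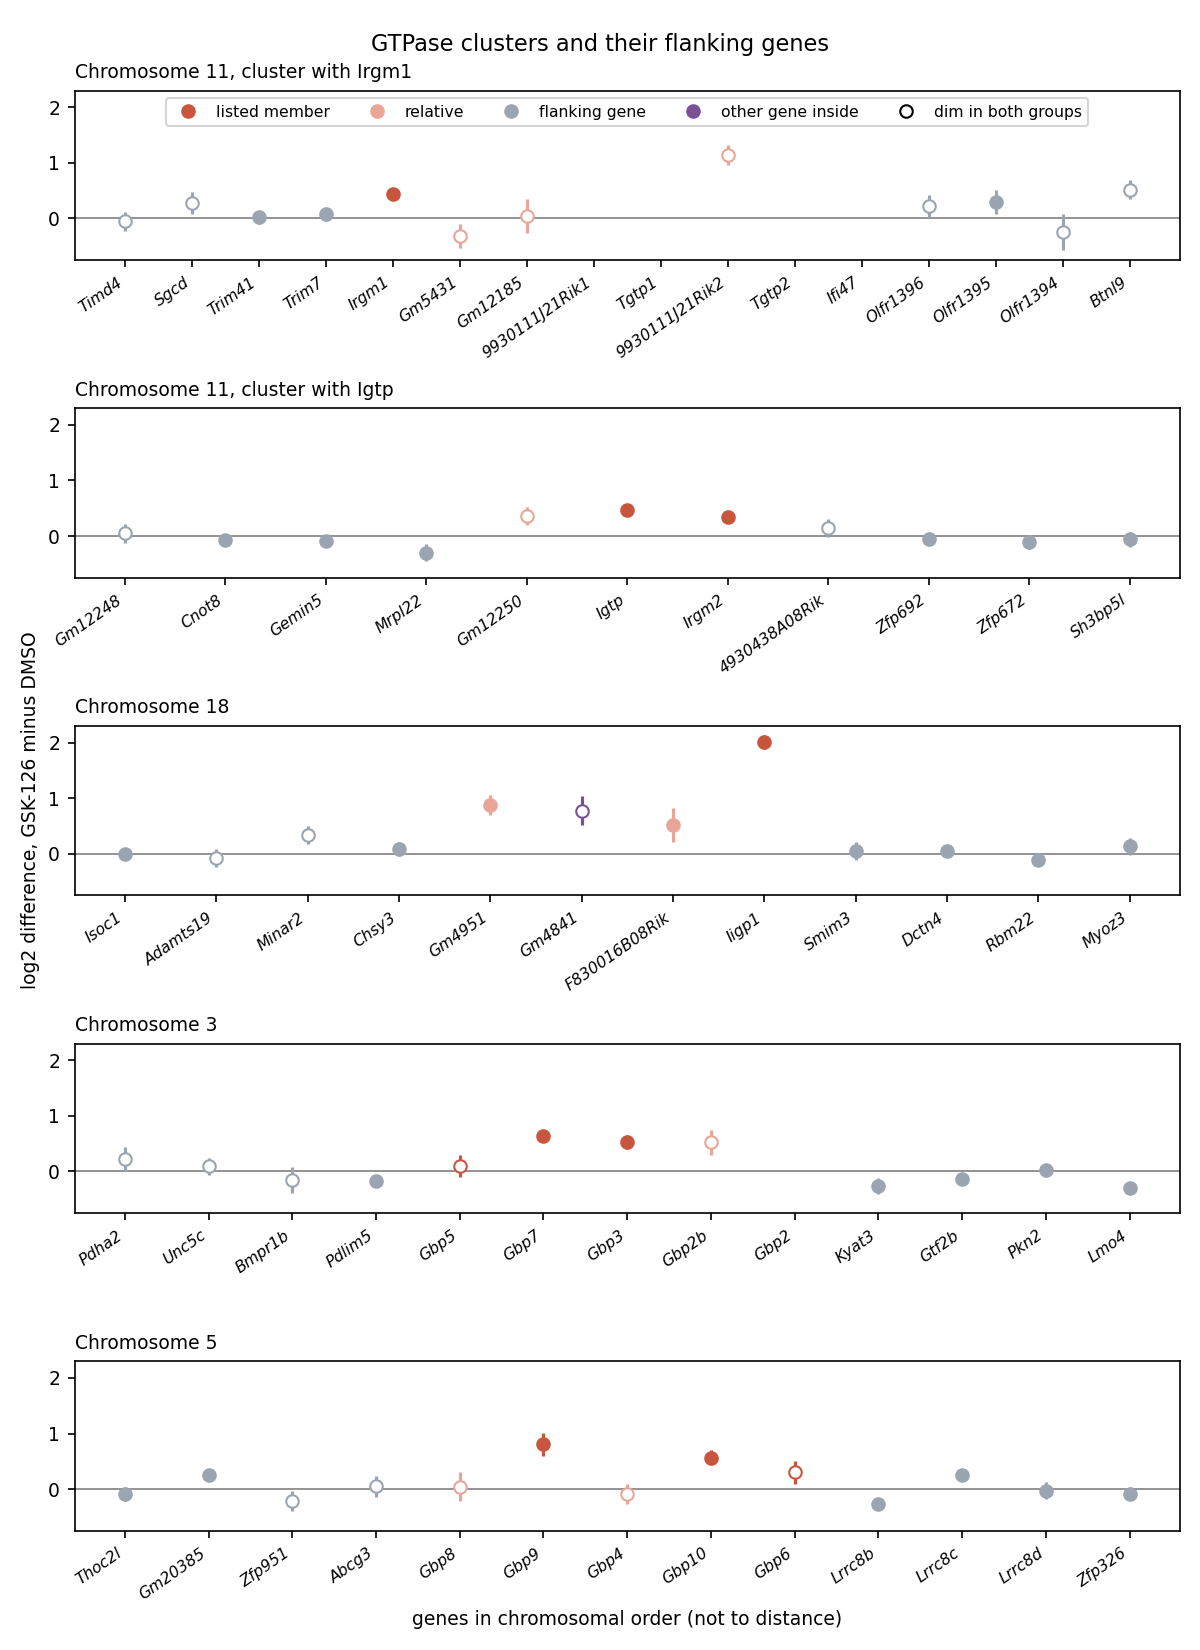
Difference between GSK-126 and DMSO on the log2 scale, with standard errors, for genes in chromosomal order in the 5 clusters that hold the members and for 4 measured genes on each side, names with no point having no probe set of their own. The members (red) were selected on this difference, the relatives (pink) had a median of 0.37 and the flanking genes (grey) one of -0.02.

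Interferon receptors and signalling genes had no call. Of 20 receptor, kinase and transcription factor genes measured, 0 passed in limma over all genes, and their median was -0.06. An unadjusted p under 0.05 was found for 2 that were higher and 2 that were lower. Stat2, a subunit of ISGF3, came closest: it was at 8.38 and 8.55 in DMSO and at 9.09 and 9.05 with GSK-126, with groups apart (difference 0.61, SE 0.09, adjusted p = 0.0506). Its adjusted p was 0.0263 once dim genes were left out, 0.0431 on quantile-normalized arrays and 0.0486 under a robust prior. It did not pass in the other 10 alternatives, among them the fit without an intensity trend (0.319), averaged probe sets (0.0525) and all probe sets (0.452). Irf7, which amplifies type I interferon production, had a difference of 0.23 (adjusted p = 0.436). Ifnlr1, the interferon lambda receptor, had -0.36 (adjusted p = 0.316) and Stat3 -0.22 (adjusted p = 0.433).

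Interferon transcripts themselves were mostly dim. Of 19 ligand genes measured, 12 were dim in both groups and 7 in neither. In limma 0 passed, although 1 that was higher had an unadjusted p under 0.05. The mean was higher with GSK-126 in 12 and lower in 7. Ifng, the interferon gamma gene, and Ifnb1 were dim in both groups, with differences of -0.05 (SE 0.16) and -0.28 (SE 0.18). The smallest p were those of the type I interferon genes Ifna14 (0.40, adjusted p = 0.433), Ifnab (-0.43, adjusted p = 0.512), Ifna6 (0.36) and Ifna4 (0.27). Among 10 inhibitors of interferon signalling the median was 0.07. Usp18, which restrains the type I interferon receptor, rose from 9.68 and 9.68 to 10.57 and 10.52 (difference 0.86, SE 0.08, adjusted p = 0.0101), and the other 9 did not pass.

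Other interferon targets had more calls among antiviral genes than among gamma-type genes, a contrast that was not tested. Of 28 type I interferon antiviral genes measured, 7 rose and 0 fell over all genes, with a median of 0.36. They were Ifit1, Rsad2, Cmpk2, Ifi204, Oas2, Ifit2 and Oasl2, with differences from 0.63 for Oasl2 to 1.48 for Ifit1. Of 27 other targets of interferon gamma, 1 rose and 0 fell, with a median of 0.22. It was Zbp1, a sensor of Z-form nucleic acids (7.63 and 7.74 to 8.55 and 8.37, difference 0.78, adjusted p = 0.0340). With any 1 array left out, neither Zbp1 nor Usp18 passed, and of the 7 antiviral genes Ifit1 alone passed, without DMSO replicate 1. Of the members, Iigp1 had a larger difference than each of these antiviral genes, and the median of the other 3 Irg genes was 0.44. The members were selected on this difference and the lists written with earlier results known, so nothing is read from these values.

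**Figure D5:**
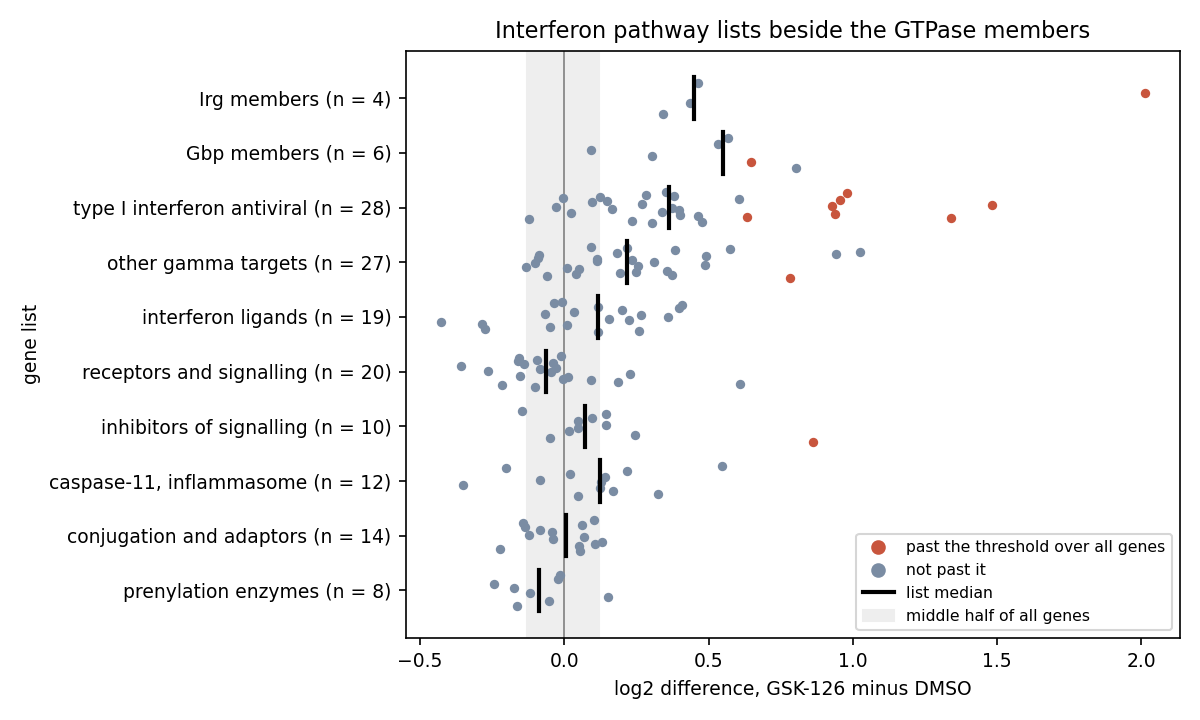
Difference between GSK-126 and DMSO on the log2 scale for each measured gene of 10 lists, with list medians as black bars and genes past the threshold over all genes in red. The medians were 0.45 for Irg and 0.55 for Gbp, whose members were selected on this difference, and 0.36 for the antiviral list. Those of receptors and signalling (-0.06), conjugation genes (0.01) and prenylation enzymes (-0.09) lie within the grey band of the middle of all genes.

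Genes that act on the GTPase proteins did not pass. The ubiquitin-like conjugation system of autophagy and its adaptors, which direct Irg and Gbp proteins to vacuoles, had a median of 0.01 over 14 genes. In limma 0 of these passed and 0 had an unadjusted p under 0.05, with the smallest p for Traf6 (-0.22, adjusted p = 0.503), Map1lc3b (0.13), Atg5 (-0.13) and Sqstm1 (0.11). The prenylation pathway provides the lipid anchor of some Gbp proteins, and 8 of its enzymes had a median of -0.09. Again 0 were past the threshold and 0 had an unadjusted p under 0.05 in limma. Zmpste24 (-0.16), Fntb (-0.24), Ggps1 (-0.17) and Pggt1b (0.15) had the smallest p among them. Of 12 caspase-11 and inflammasome genes, 8 were dim in both groups and 0 passed in limma, although 1 that was higher had an unadjusted p under 0.05. That gene was Aim2, a DNA sensor (0.55, SE 0.16, adjusted p = 0.310, dim in both groups), followed by Naip5 (-0.35), Nlrp3 (0.33) and Casp1 (-0.20).

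Markers of immune cells, which express Irg and Gbp genes strongly, were mostly dim. Of 14 macrophage and monocyte markers, 9 were below the dim level in DMSO and 8 with GSK-126, among them Ptprc, Adgre1, Itgam, Lyz2 and Mrc1 in both groups. Their mean level was 5.10 and 5.14 in DMSO and 5.22 and 5.30 with GSK-126. Cd68 rose (8.14 ± 0.09 to 9.14 ± 0.03, adjusted p = 0.0100) and the other 13 did not pass. Mpeg1, dim in both groups, also had an unadjusted p under 0.05 (difference 0.68, adjusted p = 0.268), and the bright marker Cd14 was at 10.57 ± 0.10 and 10.67 ± 0.08. Of 13 lymphocyte markers, 10 were dim in each group, 0 passed in limma with 0 at an unadjusted p under 0.05, and the mean level was 4.24 to 4.34 in DMSO and 4.34 to 4.37 with GSK-126. Of 12 dendritic cell and granulocyte markers, 11 were dim in DMSO and 8 with GSK-126, and the mean level went from 4.41 and 4.48 to 4.63 and 4.69. S100a8, also made by epithelial cells, rose (8.80 ± 0.07 to 9.53 ± 0.10, adjusted p = 0.0297). In that list 3 markers were higher at an unadjusted p under 0.05, the others being S100a9 (difference 0.63, adjusted p = 0.275, dim in DMSO) and Cpa3 (0.54, adjusted p = 0.437, dim in both groups). RMA values have no true 0, so dim is the lowest statement possible for a marker. The part of these markers in the differences of the GTPase genes was not tested.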

How the data were processed

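Total RNA was labelled with biotin and hybridised to single-channel Affymetrix mouse arrays, 2 with DMSO and 2 with GSK-126, and sample titles gave the groups and replicate numbers. Per the labels, the authors used Expression Console to summarise core exons by RMA, and the deposited values are on a log2 scale. Affymetrix Power Tools is named in the submitters' processing notes, and a genome build was not given in the sources used here. Centring is unstated and was left as deposited, and array medians were 4.73 to 4.79. The number of arrays limits the precision. Of 41345 probe sets, 23521 carry 1 symbol in the platform annotation, 1814 several and 16010 none. A gene is represented by its probe set of highest mean, and each member had 1 single-symbol probe set. No array was a copy of another: pairs shared 142 to 181 identical values.

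Differences were fitted with limma 3.58.1 in R 4.3.3 with an intensity trend, two-sided, with Benjamini-Hochberg adjustment over all 22180 genes and calls at 0.05. Residual degrees of freedom were 2, with 5.57 from the prior. The procedure was run on simulated data drawn from the same fitted model. The planted differences were larger than those of all members but Iigp1 or about as large as that of Iigp1. The simulation therefore cannot check the model itself or calls at the size of most member differences. The members, lists, tests and the rule for naming genes were chosen with earlier results of these data known. The rule names all members and measured relatives, from each pathway list the genes past the threshold or else up to 4 with the smallest p, Ezh2, and the 5 genes most like the members in pattern. Ifng, Ifnb1, marker genes and flanking genes are named besides, some after their values were seen. No value was computed for a list beyond counts, medians and means. Alternatives were no trend, a robust prior, no dim genes, averaged probe sets, all probe sets, several-symbol probe sets, centring, quantile normalization, a replicate block and leaving out each array. Motifs were searched with Python 3.11.15. Sequences from chromosome 18 were not printed.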

Additional observations from a re-analysis of the deposited data

How the results depend on the processing

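All 10 members kept a positive difference under every alternative that measured them, except Gbp5 without DMSO replicate 2 and without GSK-126 replicate 1. Counts of calls were less stable. The 96 calls over all genes and the 2 among members became 0 and 0 when limma had no intensity trend, where 1964 genes and 8 members had an unadjusted p under 0.05. They were also 0 and 0 in limma over every probe set, where 2921 probe sets and 8 members had an unadjusted p under 0.05. Leaving out 1 array gave 0 to 4 calls over all genes and 0 to 0 among members. Without dim genes 149 genes passed, and with arrays centred on their median 1 member did, Iigp1. Whether the shared replicate numbers pair the arrays is not given in the labels. Deviations of same-numbered arrays correlated at -0.025 across genes, which cannot decide it with 2 arrays per group. With the replicate number as a block, 10 genes and 1 member passed. The Gbp median ran from 0.45 to 0.65 over arrays left out, and was 0.61 without dim genes and 0.50 with centred arrays. The Irg median ran from 0.39 to 0.51 over arrays left out. Irg minus Gbp in medians ran from -0.17 to 0.0064, the latter without DMSO replicate 1.

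Some dim genes changed sign. With centred arrays and after quantile normalization, Gm12185 was at -0.0082 and -0.0072 and Gbp8 at -0.0084 and -0.019. Over arrays left out, Gbp5 ran from -0.063 to 0.25, F830016B08Rik from -0.0033 to 1.04, Gm12185 from -0.36 to 0.45, Gbp4 from -0.18 to 0.013 and Gbp8 from -0.33 to 0.43. Gbp11 ran from -0.17 to 0.030, Mx1 from -0.027 to 0.40, Gm8995 from -0.38 to 0.27 and Gm1966 from -0.061 to 0.37. The cause of these changes was not tested. Signal limits the dim genes, and 2 arrays per group limit all of them.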

Other observations

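Genes outside the family with the pattern most like that of the members over the 4 arrays were the potassium channel gene Kcnma1, the membrane proteolipid gene Mal, Reps2, the serine protease gene Prss22 and the serotonin receptor gene Htr1b. Likeness was the root mean square distance, over 4 arrays, between a gene's values around its own mean and the average of the 10 members, and it ran from 0.02 for Kcnma1 to 0.03 for Htr1b. Their differences were 0.58 for Kcnma1, 0.59 for Mal, 0.59 for Reps2, 0.66 for Prss22 and 0.64 for Htr1b. With the probe sets of each gene averaged, that of Kcnma1 was 0.18 (adjusted p = 0.696 in limma). By the same measure Gbp7 was the closest member, at 0.05, and Iigp1 the farthest, at 0.70. With 4 arrays many genes can show such a pattern.

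Gm4841, the gene between Gm4951 and F830016B08Rik on chromosome 18, was chosen after its values were seen. It was dim in both groups and had groups apart, with a difference of 0.78 (SE 0.26, adjusted p = 0.360 in limma over all genes).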
